A study of Mus musculus with 4 samples.

Results

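7 transcripts that glucocorticoid hormones are known to induce were followed across the cell classes of the mouse retina: Tsc22d3, Zbtb16, Fkbp5, Ddit4, Sgk1, Arrdc2 and Klf9. They are 7 of the 20094 genes in the deposited matrix, and all 7 were found there. They are a list of known glucocorticoid targets, several of which were chosen by being highest in Müller glia of the BC11-38 library, so every level below is a description with no test. Single-cell RNA-seq was made from retinae of Abca4-/-Rdh8-/- mice on C57BL/6J, aged 6 weeks, in which the retinoid transporter Abca4 and the retinol dehydrogenase Rdh8 are both deleted, so that retinal clears slowly after light and the retina is prone to light damage. Each group is 1 library, made from 4 retinae pooled from 2 mice, so no difference below has a replicate check. The BC11-38 library came from mice injected with 2 mg/kg of BC11-38, an inhibitor of the phosphodiesterase PDE11. The rolipram library came from mice injected with 2 mg/kg of rolipram, an inhibitor of the phosphodiesterase PDE4. Mice of the bleached vehicle library were given the solvent DMSO. Mice of these 3 groups stood for 30 min in white light at 10000 lux, and their retinae were taken 1 day later. The unbleached vehicle library came from DMSO mice without that light. Dark adaptation, pupil dilation and the injection time are recorded for light exposure only, so the unbleached mice may differ in these too, and the sources used here do not give the time of day of sampling.

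Glucocorticoids cross the cell membrane and bind the glucocorticoid receptor, which is held in the cytoplasm by chaperones. The loaded receptor moves to the nucleus and binds a palindromic DNA element or acts through other factors, and the genes it switches on include brakes on inflammation, on growth and on the receptor itself. In the retina the receptor is known from Müller glia, the radial glia that span the tissue, and glucocorticoids are used as anti-inflammatory drugs in eye disease.

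Upstream sequences of 4 members are shown because the hormone receptor is known for a DNA element that can be looked for in them. RefSeq promoter windows of the build GRCm38.p6 were read for the 250 bases before each annotated start, which matched 6 of the 7 members with 13 windows, all but Zbtb16. Each is printed 5′ to 3′ on the strand of its gene, with capitals for matches to the glucocorticoid response element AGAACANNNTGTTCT, its single arm TGTTCT or the E-box CACGTG, on either strand. The Sgk1 window is the one with the whole element, the Tsc22d3 window holds a single arm, and Ddit4 and Arrdc2 stand for members with none of these.
Sgk1 (chr10:21993640-21993889, plus strand): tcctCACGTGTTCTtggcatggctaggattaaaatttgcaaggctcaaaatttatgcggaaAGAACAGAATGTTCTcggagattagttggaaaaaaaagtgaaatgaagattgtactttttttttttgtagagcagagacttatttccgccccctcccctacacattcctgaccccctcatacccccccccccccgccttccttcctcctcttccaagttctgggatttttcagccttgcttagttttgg
Tsc22d3 (chrX:140600523-140600772, minus strand): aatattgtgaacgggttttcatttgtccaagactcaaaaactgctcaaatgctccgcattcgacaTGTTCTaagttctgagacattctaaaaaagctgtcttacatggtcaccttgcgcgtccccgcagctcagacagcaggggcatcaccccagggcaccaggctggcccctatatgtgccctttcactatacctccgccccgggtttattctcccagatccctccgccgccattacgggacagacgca
Ddit4 (chr10:59951771-59952020, minus strand): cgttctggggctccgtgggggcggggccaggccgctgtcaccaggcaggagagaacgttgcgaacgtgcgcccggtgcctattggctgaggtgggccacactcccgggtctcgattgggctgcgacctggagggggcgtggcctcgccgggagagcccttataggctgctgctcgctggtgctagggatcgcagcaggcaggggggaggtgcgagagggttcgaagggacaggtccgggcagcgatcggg
Arrdc2 (chr8:70839721-70839970, minus strand): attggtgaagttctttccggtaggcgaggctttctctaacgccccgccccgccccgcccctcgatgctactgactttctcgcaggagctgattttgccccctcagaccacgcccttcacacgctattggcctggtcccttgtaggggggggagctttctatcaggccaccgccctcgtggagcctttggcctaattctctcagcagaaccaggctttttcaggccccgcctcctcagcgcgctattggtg
The whole element lay 189 bases before this Sgk1 start (offset -189), and its arms are also the single arms at -189 and -180. An exact match was in 3 of 32851 windows of all genes (0.00913%). Upstream of the same start, a single arm at -242 overlapped an E-box at -246. Single arms were in 16.1% of all windows and, among the members, in 3 of the 6 Sgk1 windows and in 1 of the 3 Tsc22d3 windows, at -185. The Fkbp5 window held an E-box at -169, a motif present in 6.02% of all windows. The cAMP response element TGACGTCA, present in 1.55% of all windows, was in none of the 13. Its core TGACG, in 17.8% of all windows, was in the Klf9 window, in 1 Sgk1 window and in 1 Tsc22d3 window. These are matches of letters in short windows and say nothing about binding or about elements farther away.

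On mm10 with GENCODE annotation, Tsc22d3 lies on chromosome X (140539528 to 140600659, minus strand) and Zbtb16 on chromosome 9 (48654297 to 48836222, minus strand). Ddit4 (59949669 to 59951834, minus strand) and Sgk1 (21882184 to 21999903, plus strand) are both on chromosome 10. Arrdc2 lies on chromosome 8 (70835129 to 70839720, minus strand) and Klf9 on chromosome 19 (23141226 to 23168134, plus strand). Fkbp5 lies on chromosome 17 (28399094 to 28517527, minus strand) and overlaps 4 other annotated genes, of which Gm22146 is in the matrix. The sources used here do not say whether counting used strand.

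The libraries held 5697 to 7894 cells and 28983626 to 44386442 UMIs, the counts of single transcript molecules. Between 38 and 59 cell barcodes of a library also occurred in another library, at most 0.747% of its cells. One library stood apart in sex make-up: 0.176% of bleached vehicle cells had a UMI of Xist, against 48.1% to 51.6% in the other 3. Group, library and sex make-up cannot be told apart at the level of libraries. Some values from male cells, called by a Y-linked UMI without Xist, are given below. Of the member ratios recomputed in male cells, 21 lay outside the counting interval of the ratio in all cells and 70 within it. Not all of the 21 are printed. Müller glia numbered 602, 1212, 1405 and 595 cells in BC11-38, rolipram, bleached vehicle and unbleached vehicle, with median depths of 6772, 5569, 13716 and 11621 UMIs per cell. All 10 Müller markers were detected in each of the clusters that make up the class.

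Where the transcripts sat differed from member to member. Müller glia were 14.4% of all cells and held 70.2% of the UMIs of Arrdc2, an arrestin-domain protein, and 60.9% of those of Zbtb16, a zinc finger repressor also called PLZF. They held 35.3% of Ddit4, 30.1% of Klf9 and 26.3% of Fkbp5. These shares pool libraries that differ in levels and in class make-up, and their order was not the same in each. In the bleached vehicle library Müller glia held 75.6% of Zbtb16 and 54.1% of Arrdc2, and 41.6% of Klf9, 36.2% of Fkbp5 and 30.6% of Ddit4. Tsc22d3 was spread more widely, with 18.3% in Müller glia, 23.3% in amacrine cells and 23.1% in bipolar cells. Endothelial cells, 1.17% of cells, held 20.5% of the Tsc22d3 UMIs and 12.6% of those of Zbtb16. Sgk1, a kinase that regulates ion channels and transporters, was a rod transcript here: 61.3% of its UMIs were in rods, 9.09% in the few horizontal cells and 7.81% in Müller glia.

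**Figure D1:**
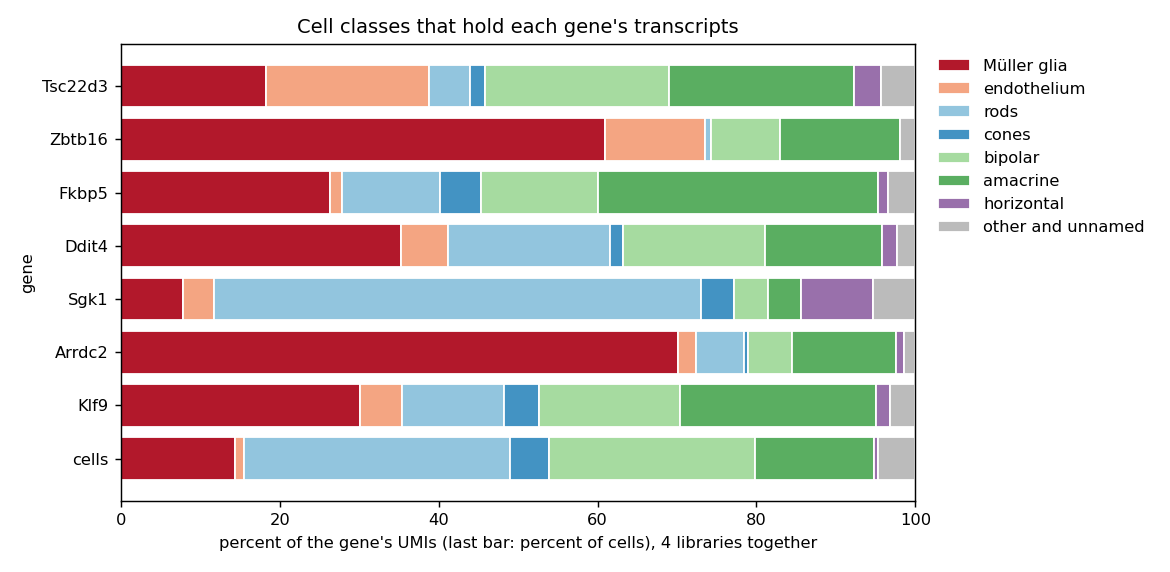
Share of each gene's UMIs by cell class over the 4 libraries together (horizontal axis, percent; the last bar gives the share of cells). Arrdc2 and Zbtb16 lie mostly in Müller glia, at 70.2% and 60.9%, and Sgk1 mostly in rods, at 61.3%.

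In Müller glia 6 of the 7 members were highest in the BC11-38 library and lowest in bleached vehicle, and Sgk1 was the exception, highest in bleached vehicle. Levels are summed UMIs of a gene divided by all UMIs of the class, scaled to 1000000 (CPM, counts per 1000000), with exact 95% Poisson intervals that cover counting error only. The ratio between the highest and the lowest library had a median of 7.04 over the members.

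Tsc22d3 encodes GILZ, a leucine zipper protein that mediates anti-inflammatory effects of glucocorticoids. Its Müller level was 124 CPM (113 to 135) in BC11-38, 27.8 CPM (24.1 to 31.9) in rolipram, 17.6 CPM (15.8 to 19.5) in bleached vehicle and 30.9 CPM (27.1 to 35.1) in unbleached vehicle. BC11-38 stood well above the rest, while the intervals of rolipram and unbleached vehicle overlapped. The level in BC11-38 was 7.04-fold (6.14 to 8.08) that in bleached vehicle and 4.01-fold (3.43 to 4.70) that in unbleached vehicle. Tsc22d3 is X-linked, and in male cells (214 of BC11-38, 1007 of bleached vehicle) the log2 ratio was 2.71, against 2.81 in all Müller glia. For bleached over unbleached vehicle the same restriction gave -0.42, against -0.81.

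Fkbp5 encodes a co-chaperone that lowers the receptor's affinity for hormone and so forms a feedback loop. Fkbp5 was at 45.5 CPM (39.2 to 52.5) in BC11-38, 11.7 CPM (9.31 to 14.4) in rolipram, 10.6 CPM (9.20 to 12.1) in bleached vehicle and 25.8 CPM (22.3 to 29.7) in unbleached vehicle. BC11-38 was highest and unbleached vehicle next, and rolipram and bleached vehicle had overlapping intervals. The ratio of BC11-38 to rolipram was 3.90 (2.998 to 5.10), and bleached vehicle was 2.44-fold (2.00 to 2.98) lower than unbleached vehicle.

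The 2 transcription factors among the members differed in the size of the gap. Zbtb16 was at 71.4 CPM (63.4 to 80.0) in BC11-38, 10.0 CPM (7.82 to 12.6) in rolipram, 6.21 CPM (5.18 to 7.39) in bleached vehicle and 39.1 CPM (34.8 to 43.8) in unbleached vehicle. The order put BC11-38 and unbleached vehicle on one side and rolipram and bleached vehicle on the other, with no overlap between the pairs. Zbtb16 in BC11-38 was 11.5-fold (9.30 to 14.3) bleached vehicle, 7.14-fold (5.50 to 9.37) rolipram and 1.82-fold (1.55 to 2.15) unbleached vehicle. Klf9, a Krüppel-like factor that responds to glucocorticoids and thyroid hormone, was at 490.0 CPM (469 to 512) in BC11-38, 320.0 CPM (307 to 333) in rolipram, 186 CPM (180 to 192) in bleached vehicle and 336 CPM (323 to 349) in unbleached vehicle. Klf9 kept BC11-38 highest and bleached vehicle lowest, with overlapping intervals for rolipram and unbleached vehicle. Its ratio of BC11-38 to bleached vehicle, 2.64 (2.498 to 2.78), was the smallest of the 6 that were past 2-fold.

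Ddit4 encodes REDD1, which restrains the growth regulator mTORC1 under stress. Ddit4 was at 314 CPM (297 to 332) in BC11-38, 132 CPM (123 to 140) in rolipram, 28.5 CPM (26.3 to 30.96) in bleached vehicle and 90.5 CPM (83.8 to 97.5) in unbleached vehicle. No intervals overlapped, and here rolipram stood above unbleached vehicle. BC11-38 was 11.0-fold (9.97 to 12.2) and rolipram 4.61-fold (4.15 to 5.12) bleached vehicle.

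Arrdc2 belongs to the alpha-arrestins, adaptors in the trafficking of membrane proteins. Arrdc2 was at 87.6 CPM (78.8 to 97.1) in BC11-38, 25.1 CPM (21.6 to 29.1) in rolipram, 5.18 CPM (4.24 to 6.27) in bleached vehicle and 23.8 CPM (20.5 to 27.5) in unbleached vehicle. Rolipram and unbleached vehicle overlapped, and bleached vehicle was far below all. BC11-38 was 16.9-fold (13.6 to 21.2) and rolipram 4.85-fold (3.80 to 6.23) bleached vehicle, and bleached vehicle was 4.60-fold (3.60 to 5.90) lower than unbleached vehicle.

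Sgk1 was at 34.8 CPM (29.4 to 41.0) in BC11-38, 28.3 CPM (24.6 to 32.5) in rolipram, 49.0 CPM (46.0 to 52.2) in bleached vehicle and 32.5 CPM (28.5 to 36.8) in unbleached vehicle. Only the bleached vehicle interval lay clear of the others. These Müller levels were 3.60% to 5.92% of the rod levels of Sgk1 in the same libraries. For 8 rod markers, the median level in Müller glia was 3.14%, 3.27%, 1.85% and 1.88% of that in rods in BC11-38, rolipram, bleached vehicle and unbleached vehicle, with a highest marker of 4.66%, 4.71%, 2.79% and 3.02%. Sgk1 itself was at 3.63%, 3.60%, 5.92% and 3.83%, within the range of the rod markers in both drug libraries and above it in both vehicle libraries. The part of rod RNA in the Müller values of Sgk1 was not tested.

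**Figure D2:**
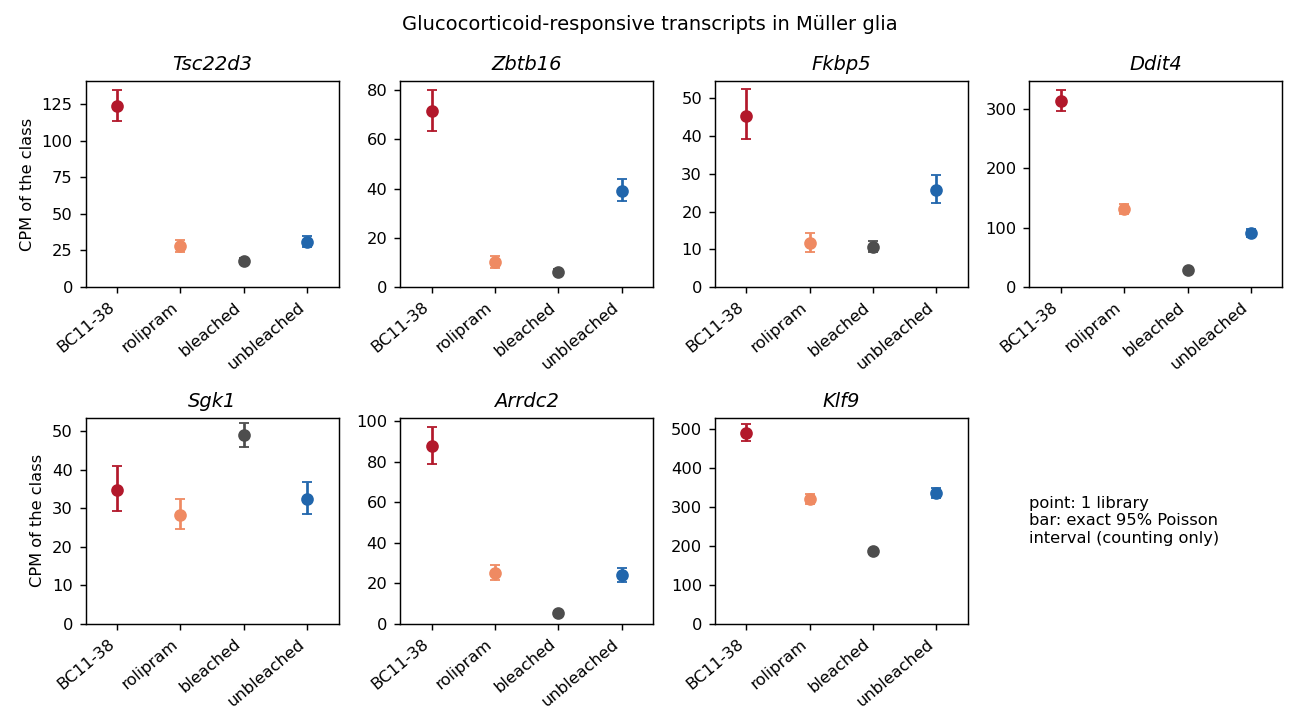
Level of each member in Müller glia (vertical axis, CPM of the class, from 0; each panel has its own scale) in the 4 libraries, 1 point per library with its exact 95% Poisson interval. BC11-38 is highest and bleached vehicle lowest in 6 panels, and Sgk1 is highest in bleached vehicle, at 49.0 CPM.

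Counted against the other genes of Müller glia, BC11-38 over bleached vehicle put 6 of the 7 members at least 2-fold higher and 0 lower, where 10.7% of genes with at least 100 UMIs were that much higher and 9.34% that much lower. The members' median log2 ratio was 2.81, beside 0.08 for all genes. Over rolipram, BC11-38 had 5 of 7 members at least 2-fold higher, all but Klf9 and Sgk1, and 0 lower, with a median of 1.80 beside 0.00, where 0.599% of genes were that much higher and 1.49% lower. Over unbleached vehicle, BC11-38 had 3 members higher, Tsc22d3, Ddit4 and Arrdc2, and 0 lower, with a median of 0.86 beside 0.10 and a background of 3.19% higher and 3.33% lower. The rule that chose the members used these libraries, so nothing is read from these shares.

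Rolipram over bleached vehicle put 2 members, Ddit4 and Arrdc2, at least 2-fold higher and 0 lower, where 8.46% of genes were higher and 5.89% lower, with a median of 0.68 beside 0.09. Bleached over unbleached vehicle put 0 members higher and 4 lower, Zbtb16, Fkbp5, Ddit4 and Arrdc2, where 2.42% of genes were higher and 1.72% lower, with a median of -1.29 beside 0.00. Zbtb16 had the widest gap of the 4, 6.30-fold (5.11 to 7.82) lower in bleached vehicle. The comparisons share libraries, bleached vehicle above all, so they are not separate evidence. Scaling by trimmed means lowered every Müller log2 ratio by 0.24 for BC11-38 over bleached vehicle, by 0.22 for rolipram over bleached vehicle and by 0.17 for BC11-38 over unbleached vehicle. Under it the sign of Fkbp5 in rolipram over bleached vehicle turned (-0.08, against 0.14), Sgk1 passed 2-fold lower there (-1.01, against -0.79), and the counts of members higher were the same.

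Shares of cells with a UMI describe the same UMIs of the same libraries in another way and are not separate evidence. With every cell thinned to 2000 UMIs and shallower cells left out (36, 85, 63 and 43 cells), Arrdc2 was seen in 15.9% of BC11-38, 5.77% of rolipram, 0.596% of bleached vehicle and 6.52% of unbleached vehicle Müller glia. Unthinned shares were 36.2%, 11.8%, 6.48% and 21.5%. Rods, whose median depth was 1235 to 1641 UMIs, had an Arrdc2 UMI in 0.698% to 0.956% of cells. The thinned bleached vehicle share is thus at the level of rods, and the other 3 are above it. Zbtb16 was seen in 13.3%, 1.77%, 0.671% and 9.06% of thinned Müller glia, against 33.4%, 5.61%, 7.90% and 34.1% unthinned, and in at most 0.247% of rods. Of the 6 members other than Sgk1, at least 2 were seen in 46.6% of thinned BC11-38 cells, 16.3% of rolipram cells, 3.80% of bleached vehicle cells and 19.4% of unbleached vehicle cells. None was seen in 13.1%, 39.8%, 66.4% and 35.7%. The same thinning left out most rods (1734, 2130, 1522 and 1318) and kept the 559, 428, 466 and 709 deepest. In these deeper rods at least 2 were seen in 12.0%, 9.11%, 11.8% and 13.0% of cells and at least 1 in 59.9%, 53.5%, 53.0% and 58.7%. The shares of bleached vehicle Müller glia lay below those of these deeper rods.

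Different clusters held most Müller glia in different libraries. Cluster 31 held 92.4% of BC11-38 Müller glia, 72.7% of rolipram, 3.70% of bleached vehicle (52 cells) and 33.3% of unbleached vehicle, while cluster 11 held 0, 15.02%, 70.5% and 47.7%. Within cluster 31 alone, Tsc22d3 was at 124, 30.7, 17.0 and 48.9 CPM in BC11-38, rolipram, bleached vehicle and unbleached vehicle. Fkbp5 there was at 46.3, 12.6, 4.86 and 32.1 CPM, and Arrdc2 at 89.8, 31.3, 17.0 and 50.5 CPM. Ddit4 was at 324, 173, 89.9 and 168 CPM. Sgk1 in this cluster was at 34.7, 28.2, 19.4 and 15.8 CPM, from 138, 136, 8 and 29 UMIs. The highest value there was that of BC11-38, unlike in the whole class. Its interval (29.2 to 41.0 CPM) overlapped those of rolipram (23.7 to 33.3) and bleached vehicle (8.39 to 38.3), so these were not ordered. The counts of members at least 2-fold higher within cluster 31 were 6 for BC11-38 over bleached vehicle, 4 over rolipram and 2 over unbleached vehicle. The 2 over unbleached vehicle were Tsc22d3 and Sgk1, and Ddit4 and Arrdc2 were under 2-fold in that comparison. The share of all genes past 2-fold was not computed within cluster 31, so nothing is read from these counts. In its bleached vehicle cells Tsc22d3 and Arrdc2 had 7 UMIs each and Fkbp5 had 2. Zbtb16 had 0 UMIs in the 52 bleached vehicle cells of cluster 31, with an upper bound of 8.97 CPM, against 74.2 CPM in BC11-38, 11.6 CPM in rolipram and 61.4 CPM in unbleached vehicle. In cluster 11, which had no BC11-38 cells, Zbtb16 was at 5.32 CPM in rolipram, 6.68 CPM in bleached vehicle and 34.7 CPM in unbleached vehicle.

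Markers of other cells in the Müller class differed between libraries as well. The 7 astrocyte markers summed to 233 CPM in BC11-38, 592 in rolipram, 1074 in bleached vehicle and 978 in unbleached vehicle, with Fgfr3 at 0 in both drug libraries. The order of these sums is that of Gfap, at 32.7, 396, 869 and 764 CPM in the same libraries. Gfap was seen in 2.82%, 19.2%, 72.6% and 56.0% of Müller glia, so the sums do not measure the number of astrocytes in the class. The 8 rod markers summed to 1471, 1492, 638 and 791 CPM and the 10 amacrine markers to 1321, 684, 450 and 645 CPM, with Chat at 0 in all 4. Amacrine levels of Zbtb16 (2.59 to 8.23 CPM) and Arrdc2 (3.47 to 6.63 CPM) were below their Müller levels in BC11-38. The 10 Müller markers summed to 40440, 35167, 17059 and 28098 CPM. The part of these shifts in the members' values was not tested.

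Endothelial cells repeated part of the order, from 70, 96, 92 and 52 cells in BC11-38, rolipram, bleached vehicle and unbleached vehicle. Tsc22d3 was at 655 CPM (601 to 714) in BC11-38, 375 CPM (338 to 415) in rolipram, 165 CPM (144 to 188) in bleached vehicle and 377 CPM (337 to 419) in unbleached vehicle. This is the order of Müller glia, with rolipram and unbleached vehicle overlapping, and BC11-38 was 3.97-fold (3.39 to 4.66) bleached vehicle. Klf9 was at 815 CPM (754 to 880), 395 CPM (357 to 436), 271 CPM (244 to 300) and 499 CPM (454 to 548) in BC11-38, rolipram, bleached vehicle and unbleached vehicle. Its intervals did not overlap, and BC11-38 was 3.01-fold (2.65 to 3.42) bleached vehicle.

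Zbtb16 had 91 UMIs in BC11-38 endothelium, 2 in rolipram, 3 in bleached vehicle and 68 in unbleached vehicle, or 113, 2.00, 2.17 and 76.5 CPM. It was seen in 40 of 70 BC11-38 cells, 2 of 96 rolipram cells, 3 of 92 bleached vehicle cells and 26 of 52 unbleached vehicle cells. BC11-38 and unbleached vehicle thus stood on one side, as in Müller glia, and the ratio of BC11-38 to bleached vehicle was 52.2, with a wide counting interval of 17.3 to 258. Thinned to 2000 UMIs per cell, the shares were 11.8%, 0% (0 of 88 cells, upper bound 4.11%), 1.16% and 3.92%. Fkbp5 had 20, 4, 6 and 9 UMIs, highest in BC11-38 again. Arrdc2 had 5, 8, 10 and 3 UMIs, too few to order the libraries, and lacked the contrast it had in Müller glia.

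Ddit4 was nearly level in endothelium, at 176, 136, 143 and 127 CPM in BC11-38, rolipram, bleached vehicle and unbleached vehicle. Sgk1 was at 258 CPM (224 to 296) in BC11-38 and 252 CPM (222 to 285) in rolipram, against 147 CPM (128 to 169) in bleached vehicle and 147 CPM (123 to 175) in unbleached vehicle. Both drug libraries stood above both vehicle libraries, an order that Sgk1 did not have in Müller glia.

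For BC11-38 over bleached vehicle 4 of the 7 members were at least 2-fold higher in endothelium, Tsc22d3, Zbtb16, Fkbp5 and Klf9, and 0 lower, where 2.81% of genes with at least 100 UMIs were higher and 2.45% lower. Only 4 of the 7 reached 100 UMIs in that pair of libraries, and Zbtb16 (91 and 3 UMIs) and Fkbp5 (20 and 6 UMIs) were not among them. Of the members held to the limit of the background, Tsc22d3 and Klf9 alone were past 2-fold. Zbtb16 and Fkbp5 were also under that limit where they are counted over rolipram and for bleached over unbleached vehicle, and Fkbp5 over unbleached vehicle. Over rolipram 3 were higher and 0 lower (background 1.23% and 0.512%), and over unbleached vehicle 1 and 0 (1.13% and 0.613%). Rolipram over bleached vehicle gave 1 higher and 0 lower (1.15% and 1.20%), and bleached over unbleached vehicle gave 1 higher, Arrdc2 on 13 UMIs, and 3 lower (0.754% and 0.553%). The 5 erythrocyte markers summed to 10559 CPM in bleached vehicle endothelium, against 15.02 CPM or less in the other libraries. The 6 pericyte markers summed to 7789 CPM in BC11-38 and to 5774, 5950 and 6195 CPM in rolipram, bleached vehicle and unbleached vehicle, and the 7 endothelial markers to 10259, 12713, 13012 and 11455 CPM. Their part in the result was not tested.

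**Figure D3:**
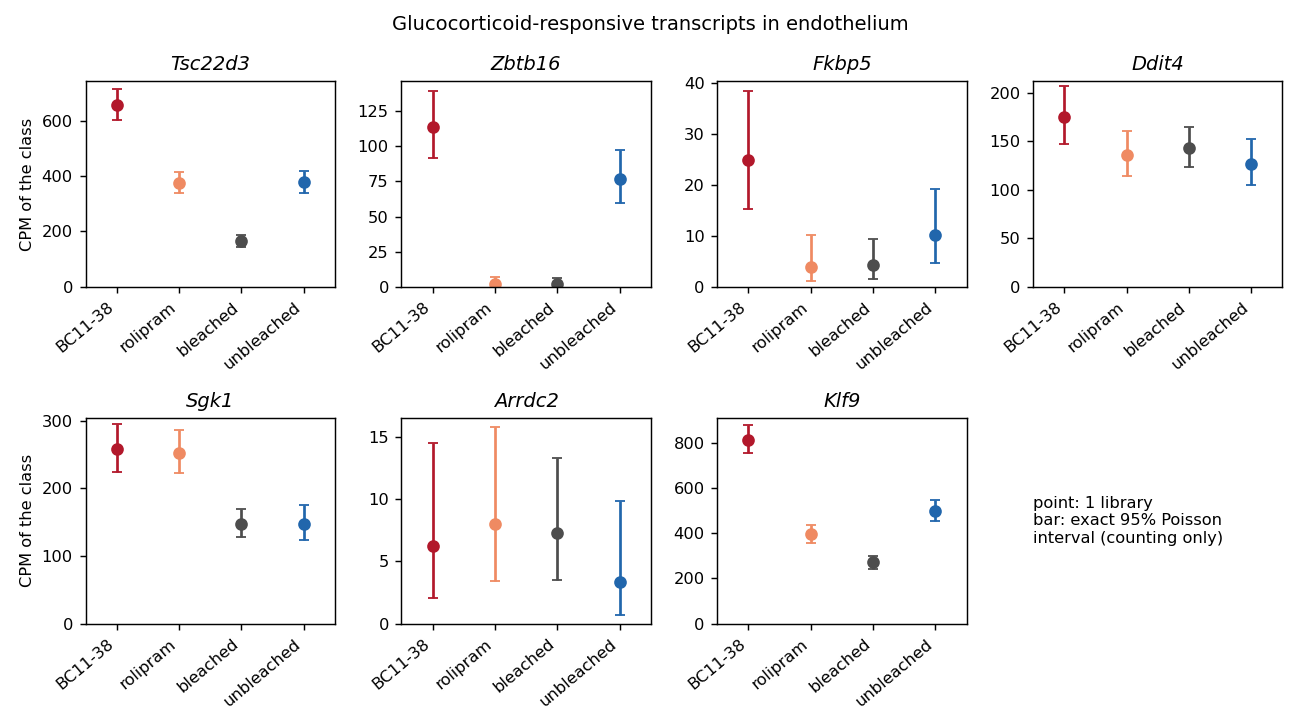
Level of each member in endothelium (vertical axis, CPM of the class, from 0; each panel has its own scale) in the 4 libraries, 1 point per library with its exact 95% Poisson interval. Tsc22d3 and Klf9 are highest in BC11-38, at 655 and 815 CPM, and Zbtb16 is near 0 in rolipram and bleached vehicle.

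In neurons the libraries lay closer together. The median ratio of highest to lowest library was 1.35 in rods, 1.43 in cones, 1.80 in bipolar cells and 1.48 in amacrine cells, against 7.04 in Müller glia and 3.01 in endothelium. Several members were chosen by their Müller levels, so this gap is a description. The cone median leaves out Zbtb16 and Arrdc2, whose lowest level in cones was 0, so that no ratio could be formed. In bipolar cells Tsc22d3 was nearly the same in all libraries, at 44.3 CPM in BC11-38, 43.6 in rolipram, 45.9 in bleached vehicle and 43.7 in unbleached vehicle. Klf9 in rods was at 300.0, 287, 323 and 335 CPM in BC11-38, rolipram, bleached vehicle and unbleached vehicle. Fkbp5 in amacrine cells, which hold 35.2% of its UMIs over the pooled libraries but 21.0% in bleached vehicle, was at 31.1, 25.9, 36.0 and 32.3 CPM, highest in bleached vehicle. Ddit4 was higher in BC11-38 than in bleached vehicle in rods (1.34-fold, 1.18 to 1.52), bipolar cells (1.45-fold, 1.27 to 1.66) and amacrine cells (1.65-fold, 1.33 to 2.06), with intervals clear of 1 in all 3. Sgk1 was higher in the same classes, at 1.16-fold (1.10 to 1.22) in rods, 1.79-fold (1.497 to 2.14) in bipolar cells and 1.15-fold (0.904 to 1.47) in amacrine cells, where the interval includes 1. Cones went the other way for Sgk1, at 98.9 CPM (85.9 to 113) in BC11-38 against 142 CPM (125 to 161) in bleached vehicle. Ddit4 was nearly level in cones, at 25.3 against 24.1 CPM.

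Members past 2-fold were few in neurons. For BC11-38 over bleached vehicle, 0 of 7 were higher and 0 lower in rods (background 1.02% and 4.26%), 1 higher and 0 lower in bipolar cells (0.853% and 1.81%) and in amacrine cells (0.965% and 1.12%), Zbtb16 in both, and 0 higher and 1 lower in cones (0.781% and 3.25%), Arrdc2 on 5 UMIs. For BC11-38 over unbleached vehicle, rods had 0 higher and 1 lower (0.466% and 1.45%), Zbtb16 on 6 UMIs, cones had 0 and 0 (0.256% and 0.531%), bipolar cells 1 and 0 (0.187% and 0.266%) and amacrine cells 0 and 0 (0.0549% and 0.412%). The member in bipolar cells was Sgk1, at 34.2 CPM in BC11-38, 26.2 in rolipram, 19.1 in bleached vehicle and 16.3 in unbleached vehicle, a ratio of 2.10 (1.70 to 2.61) between BC11-38 and unbleached vehicle. For bleached over unbleached vehicle, rods had 0 higher and 0 lower (1.53% and 0.0959%), cones 0 and 0 (1.34% and 0.13%), bipolar cells 1 and 0 (0.94% and 0.408%), Arrdc2 on 31 UMIs, and amacrine cells 0 and 1 (1.18% and 1.43%). That member, Zbtb16 in amacrine cells, was at 2.59 CPM in bleached vehicle against 8.23 CPM in unbleached vehicle (3.18-fold lower, 1.61 to 7.16), from 9 and 95 UMIs. It was the same direction as in Müller glia and endothelium.

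**Figure D4:**
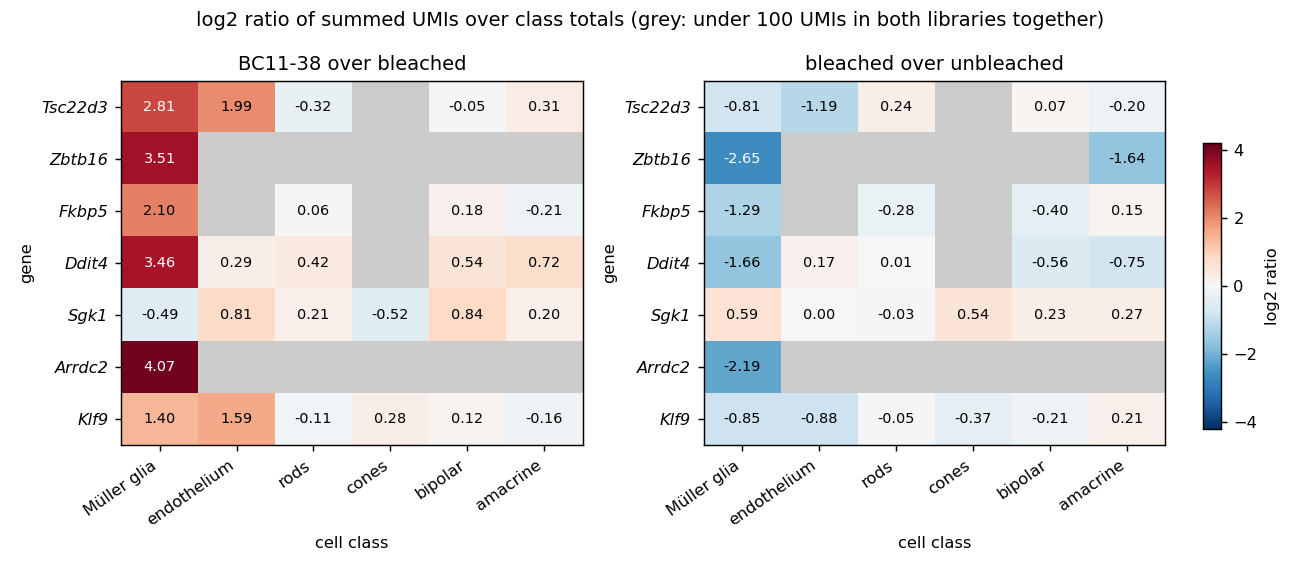
log2 ratio of each member's level in 6 cell classes (columns) for BC11-38 over bleached vehicle (left) and bleached over unbleached vehicle (right), with red for higher and blue for lower in the library named first; grey cells had under 100 UMIs. Müller glia hold ratios up to 4.07, endothelium up to 1.99, and the counted neuron values lie closer to 0, except Zbtb16 in amacrine cells at -1.64 (right).

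Sgk1 in rods was at 960 CPM in BC11-38, 786 in rolipram, 828 in bleached vehicle and 848 in unbleached vehicle, a range of 1.22-fold. Horizontal cells, 21 to 45 per library, had 544, 606, 479 and 516 CPM of Sgk1. Microglia, absent from the BC11-38 library, had 761 CPM in rolipram, 246 in bleached vehicle and 429 in unbleached vehicle from 32, 38 and 14 cells. Rods thus varied little in Sgk1, with BC11-38 highest and rolipram lowest.

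The receptor and the proteins that handle the hormone were listed as well. Nr3c1, the glucocorticoid receptor, was at 115 CPM in BC11-38 Müller glia, 125 in rolipram, 96.9 in bleached vehicle and 94.6 in unbleached vehicle. Of 19 listed genes 18 were in the matrix and 14 had enough UMIs in Müller glia. For BC11-38 over bleached vehicle 1 was at least 2-fold higher, where 10.7% of all genes were. It was Nr3c2, the mineralocorticoid receptor, which also binds glucocorticoids, at 15.5 against 5.23 CPM. The chaperone Hspa8 was the 1 lower (9.34% of all genes), at 579.8 against 1277 CPM. The list's median was 0.05 beside 0.08 for all genes. None passed 2-fold for BC11-38 over rolipram (0.599% of all genes higher and 1.49% lower) or for bleached over unbleached vehicle (2.42% and 1.72%). Hspa8 was the 1 lower for BC11-38 over unbleached vehicle (3.33% of all genes). Rolipram over bleached vehicle had 1 higher, Nr3c2 (8.46%), and 1 lower, Hspa8 (5.89%). No result is read from these counts. In endothelium the coactivator Ncoa3 alone passed 2-fold, for BC11-38 over bleached vehicle, at 164 against 67.4 CPM (2.81% of all genes higher).

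In Müller glia 34 other genes listed as induced by glucocorticoids went both ways. All were in the matrix and 28 were counted for BC11-38 over bleached vehicle, 10 at least 2-fold higher and 12 at least 2-fold lower, where 10.7% and 9.34% of all genes were, with a median log2 ratio of -0.15 beside 0.08. Those higher were led by Fam107a at 60.5 against 5.62 CPM, Glul, which makes glutamine from glutamate, at 10921 against 1179 CPM, and Hif3a at 37.7 against 5.77 CPM. The clock genes Per1 (55.4 against 19.5 CPM) and Nr1d1 (293 against 122 CPM), Cdkn1c, Bcl6, Txnip, Dusp1 and Mertk were the others. Those lower were led by Lcn2, a secreted iron-trafficking protein of injured tissue, at 2.18 against 361 CPM, Gpd1 at 1.45 against 38.7 CPM and Angptl4 on few UMIs. The metallothioneins Mt1 (2969 against 14949.5 CPM) and Mt2 (426 against 2822 CPM), which bind metals, Cdkn1a, Tgm2, Plin4, Cebpb, Cebpd, Nfkbia and Sdc4 were also lower. Lcn2, the metallothioneins and Cebpd also respond to inflammation and stress, and Glul is a Müller marker used to name the class.

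In the other comparisons the same list was split too. BC11-38 over rolipram had 2 higher, Per1 (55.4 against 25.0 CPM) and Bcl6 (70.6 against 30.6 CPM), and 2 lower, Cebpd and Lcn2, of 23 counted (0.599% and 1.49% of all genes). BC11-38 over unbleached vehicle had 4 higher and 7 lower of 26 (3.19% and 3.33% of all genes). Rolipram over bleached vehicle had 6 and 9 of 28 (8.46% and 5.89%), and bleached over unbleached vehicle 3 and 4 of 28 (2.42% and 1.72%). In endothelium 6 of 19 were higher and 0 lower for BC11-38 over bleached vehicle, where 2.81% and 2.45% of all genes were: Per1 (95.9 against 22.5 CPM), Cdkn1a (492 against 166 CPM), Cdkn1c, Fam107a (156 against 23.2 CPM), Txnip and Nr1d1. Cdkn1a was thus higher in endothelium and lower in Müller glia in the same pair of libraries.

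**Figure D5:**
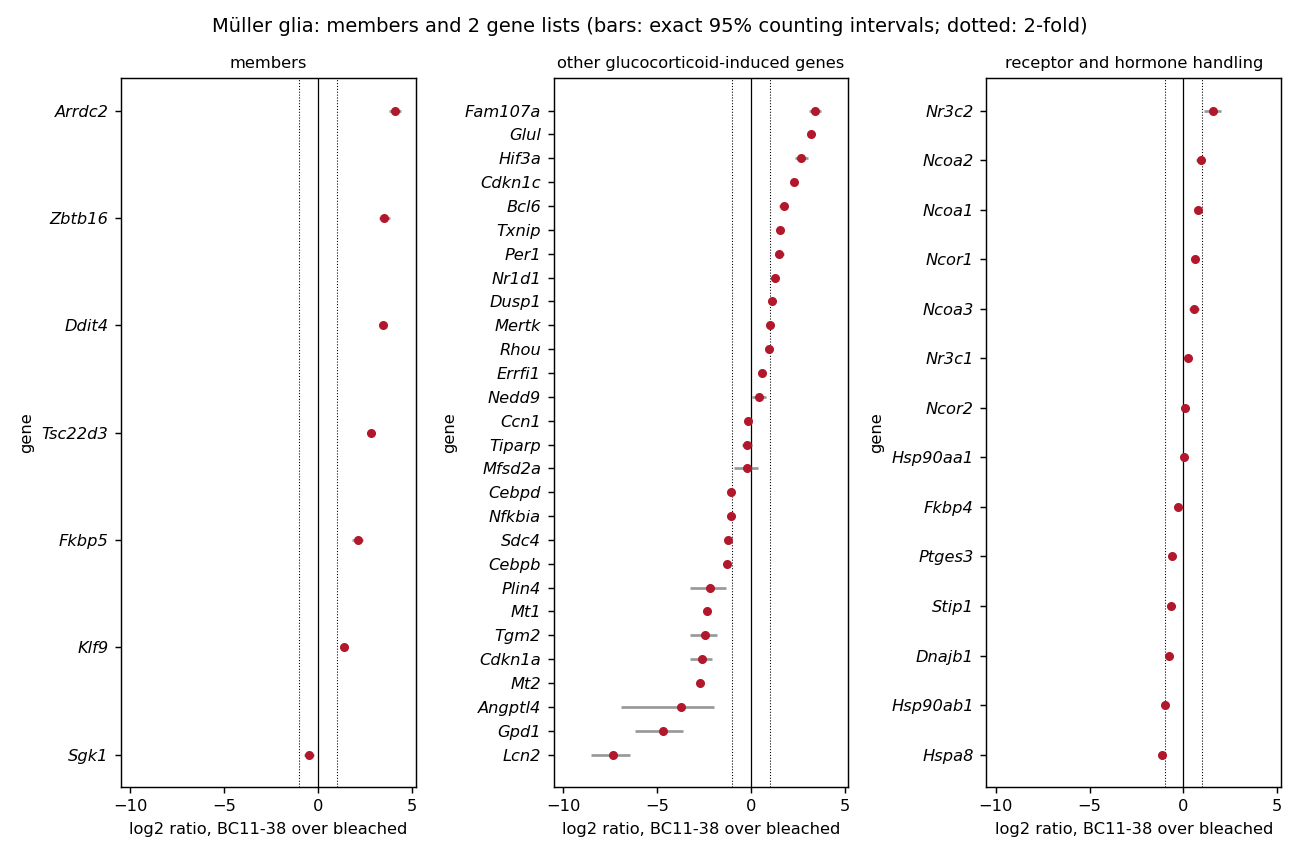
log2 ratio of BC11-38 over bleached vehicle in Müller glia (horizontal axis) for the 7 members, for the counted genes of the other glucocorticoid-induced list and for those of the receptor and hormone handling list, with exact 95% counting intervals and dotted lines at 2-fold. The members lie to the right except Sgk1, at -0.49, the second list falls on both sides and the third lies near 0.

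Relatives of the members in the same protein families were listed too. Of 16 listed, 15 were counted in Müller glia for BC11-38 over bleached vehicle, and 4 were at least 2-fold higher (10.7% of all genes): Ddit4l, the Arrdc2 relatives Arrdc3 (121 against 47.4 CPM) and Txnip (247 against 83.4 CPM), and the Klf9 relative Klf15 (48.1 against 11.2 CPM), itself a glucocorticoid target. Arrdc4 was the 1 lower (0.967 against 11.0 CPM; 9.34% of all genes). The list's median was 0.64 beside 0.08. Klf15 alone passed 2-fold over rolipram and over unbleached vehicle, higher in both (0.599% and 3.19% of all genes). Bleached over unbleached vehicle had 1 higher, Arrdc4 (2.42% of all genes), and 1 lower, Klf15 (1.72%). Rolipram over bleached vehicle had 2 higher, Ddit4l and Txnip (8.46%), and 1 lower, Arrdc4 (5.89%). Among 10 substrates of SGK1 and partners of DDIT4 in mTORC1 control, 9 were counted. For BC11-38 over bleached vehicle 2 of them passed 2-fold, Foxo3 (125 against 47.8 CPM) and Txnip, both higher (10.7% of all genes). That list's median was 0.51. In it Txnip alone passed for rolipram over bleached vehicle, higher (8.46% of all genes), and none for the other 3 comparisons.

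Genes with the profile most like the members were ranked by Pearson's r with the mean of the members' standardized log2(CPM + 10) over 24 points, 6 classes in 4 libraries, among 11985 genes. The 5 nearest were Sipa1l2 and Zhx3 (r = 0.84 each), Grb10 and Hexim1 (r = 0.83 each) and Nsun6 (r = 0.82). Grb10, an adaptor that dampens insulin signalling, was at 118 CPM in BC11-38 Müller glia, 57.6 in rolipram, 41.4 in bleached vehicle and 51.4 in unbleached vehicle. The members' own r with that mean, which includes them, was 0.94 for Klf9, 0.84 for Ddit4, 0.78 for Zbtb16, 0.67 for Arrdc2, 0.65 for Tsc22d3, 0.41 for Fkbp5 and 0.31 for Sgk1. The points share libraries and classes, so r is a description.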

How the data were processed

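Cell Ranger 6.0.1, Seurat 3.2.2 and mm10 are named in the submitters' processing notes, without roles. The deposited values are natural log values, ln(1 + x), where x is a gene's UMI count scaled to 10000 for each cell, as the values show. The planned analysis assumed counts. Back-transforming gave whole UMIs (100% to a tolerance of 0.001), which were used instead. The sources used here do not give filters on cells, strand use in counting or the treatment of shared reads, and a further group of the series text was not analysed here.

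Cells were clustered with scanpy 1.11.5 (2000 variable genes, 30 components, 15 neighbours, Leiden resolution 1, 35 clusters). Each cluster was named for the class whose listed markers it showed in the greatest proportion (3 or more, each in 15% of its cells and at 2-fold the median cluster). A shallow cluster without an own marker among its 10 leading genes was left unnamed, as was one with more markers of another class there. Cluster 1, with 8 of 8 rod markers, was thus left out of the rods. It held 2, 81, 518 and 351 cells of BC11-38, rolipram, bleached vehicle and unbleached vehicle. Scrublet called 0 to 13 cells a library, at most 0.165% against 4.56% to 6.32% expected, so the caller did not work and most doublets remain. UMIs were added up within a class of a library, and only classes with 50 cells in all libraries were compared. Log2 ratios used a prior of 0.5 UMIs. With 1 library per group there is no test and no p-value, a 2-fold difference is counted, and exact 95% intervals (Poisson for levels and ratios, Clopper-Pearson for shares) cover counting error only. The background of each count is the genes with at least 100 UMIs over both libraries. The functions were tested on simulated data. Medians over members include those with few UMIs.

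The members, the marker lists and the gene lists were chosen with earlier results of these data known. The genes named are the 7 members, genes of the lists, and the 5 genes with the most similar profile. Alternatives were trimmed-mean scaling, means over cells, male cells (a Y-linked UMI without Xist), removal of the highest doublet scores, resolution 0.5, thinning to 2000 UMIs and, added after seeing the data, cluster 31 alone and leaving out the Gfap-led cluster 12.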

Additional observations from a re-analysis of the deposited data

Results flagged for a closer look

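For rolipram over bleached vehicle Sgk1 was higher in endothelium and lower in Müller glia, opposite directions in 2 cell classes. Its log2 ratio was 0.78 in endothelium and -0.79 in Müller glia, a difference of 1.57, which was not tested. Within Müller cluster 31 the ratio was 0.53, from 136 UMIs in rolipram and 8 in bleached vehicle. In rolipram the Müller level of Sgk1 was 3.60% of the rod level, within the range of the rod markers there, 2.22% to 4.71%. Each value comes from 1 library per group.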

How the results depend on the processing

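No paired analysis was possible because each group is 1 library. Single member ratios were recomputed only where the pair of libraries held at least 100 UMIs, which leaves out Fkbp5 and Arrdc2 in endothelium, and Zbtb16 there except for BC11-38 over unbleached vehicle. Of the recomputed ratios past 2-fold, 160 of 160 kept their direction in Müller glia and 153 of 160 stayed past 2-fold, and in endothelium 30 of 30 and 29 of 30. Of all those recomputed, 273 of 280 kept their sign in Müller glia and 122 of 126 in endothelium; those in rods, cones, bipolar and amacrine cells were recomputed for BC11-38 over bleached and bleached over unbleached vehicle only. For BC11-38 over bleached vehicle the Müller median of 2.81 became 2.57 with trimmed-mean scaling, 3.03 as a mean over cells and 2.38 in cluster 31 alone, and in male cells 1 member, Sgk1 (-1.11), was 2-fold lower. With trimmed-mean scaling 1 member, Sgk1 again, was 2-fold lower for rolipram over bleached vehicle. The Müller median of BC11-38 over rolipram was 1.52 in cluster 31 alone, against 1.80, and that of bleached over unbleached vehicle -1.66 after thinning, against -1.29. In endothelium the median of bleached over unbleached vehicle was -0.093 after thinning, against -0.88, and that of BC11-38 over rolipram 0.59 in male cells and 0.56 after thinning, against 0.80. The cause of these moves was not tested. Sgk1 in Müller glia also turned sign in male cells for BC11-38 over rolipram (-0.37, against 0.30) and over unbleached vehicle (-0.40, against 0.10). Endothelial values rest on 52 to 96 cells per library, and Zbtb16, Fkbp5 and Arrdc2 on few UMIs there. No variation between mice is in any interval.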

Other observations

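In pericytes, named from 16, 38, 19 and 5 cells in BC11-38, rolipram, bleached vehicle and unbleached vehicle, Tsc22d3 was at 378, 138, 106 and 48.1 CPM, from 34, 15, 8 and 1 UMIs. Klf9 was at 834, 569, 490 and 193 CPM there, and Zbtb16 had 5 UMIs in BC11-38 and 0 in the other libraries. BC11-38 was highest for each of these, in too few cells for a comparison.

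In ganglion cells, 35, 34, 12 and 26 in the same order, Klf9 was nearly level at 285, 276, 261 and 274 CPM, and Tsc22d3 was at 88.6, 68.5, 48.6 and 69.4 CPM. Zbtb16 had 0 UMIs in horizontal cells and cones of every library.

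The lens markers in Müller glia summed to 30.7 CPM in BC11-38, 1.39 in rolipram, 4.99 in bleached vehicle and 0.131 in unbleached vehicle. Hsd11b2, which inactivates glucocorticoids, was at 4.60, 1.53, 0.0489 and 0.524 CPM in Müller glia in that order, too low in every library to be counted.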
